A study of Mus musculus with 12 samples.

Results

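β-Catenin, the genes of its closest protein partners and its neighbour in the genome, Ulk4, were followed through 12 RNA-seq libraries of a mouse cholangiocyte line. These 9 genes, of 24421 in the count table, were picked by name, with earlier results of these data known. They were Ctnnb1, which encodes β-catenin, Ulk4 on the opposite strand next to it, the junction genes Ctnna1, Ctnnd1, Jup and Cdh1, and the destruction complex genes Apc, Gsk3b and Axin1. The question was whether an siRNA against Ctnnb1 lowered Ctnnb1 alone among them.

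The cells were SMCC, a line of mouse small cholangiocytes, the epithelial cells that line bile ducts. One pair of groups received siRNA with the lipid reagent RNAiMAX for 24 h, either a control siRNA (si-CTL) or an siRNA against β-catenin (si-Ctnnb1). The other pair received a plasmid with another Lipofectamine reagent for 48 h, either eGFP or S45Y, a mutant of β-catenin that the study used as its constitutively active form. Each group had 3 libraries of total RNA. The labels do not say whether these came from separate cultures, so p-values measure the spread between libraries, which may be technical. All groups were 1 line, the cells carried their own Ctnnb1, and the share of cells that took up siRNA or plasmid was not given in the sources used here. Silencing below is si-Ctnnb1 against si-CTL, and activation is S45Y against eGFP.

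β-Catenin has a structural and a signalling role. At adherens junctions it ties the cytoplasmic tail of E-cadherin to α-catenin and thereby to actin. In the cytoplasm, a complex built on Axin and APC lets GSK3β phosphorylate it at its amino end, which marks it for degradation, and a Wnt signal stops this so that β-catenin enters the nucleus and works with TCF/LEF factors. Silencing acts on the RNA, whereas the S45Y substitution acts on the stability of the protein.

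The codon changed in S45Y is shown here in the reference sequence because it separates the treatments. It lies in exon 3 of the 15 exons of Ctnnb1-201, a coding transcript of 781 codons in GENCODE M21. Codons 30 to 48 are at chr9:120950596-120950652 of mm10 on the plus strand, with the serine codon 45 in capitals.
Ctnnb1 codons 30 to 48: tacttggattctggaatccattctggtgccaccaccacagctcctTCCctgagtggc
Codon 45 itself is at chr9:120950641-120950643, and the stretch around it holds the residues that the destruction complex phosphorylates. The counts are per gene, so they cannot separate transcripts of the plasmid from those of the cell's own gene, and the plasmid sequence was not used here.

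Ulk4, which encodes a serine/threonine kinase-like protein of the Unc-51 family, was included because it overlaps Ctnnb1. Ctnnb1 runs on the plus strand at chr9:120929216-120960507 and Ulk4 on the minus strand at chr9:120955351-121277197. Their exons share 759 bases, 14.6% of the 5192 exon bases of Ctnnb1 and 8.93% of the 8503 of Ulk4. A stretch of 284 bases at chr9:120955351-120955634 is coding sequence of Ctnnb1, and a stretch of 475 bases at chr9:120960033-120960507 lies in its 3′ UTR. On the Ulk4 side the shared bases belong only to the noncoding transcripts Ulk4-207 and Ulk4-210, and Ulk4-210, with 759 exon bases, lies wholly inside Ctnnb1. The 2 coding transcripts of Ulk4 reach no lower than position 120964454, which leaves 3946 bases between them and the end of Ctnnb1. The map of both genes shows these stretches. The sources used here do not state whether counting used the strand, and without it reads of Ctnnb1 and Ulk4 in the shared bases cannot be told apart. The other 85.4% of Ctnnb1 exon bases are free of Ulk4.

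**Figure D1:**
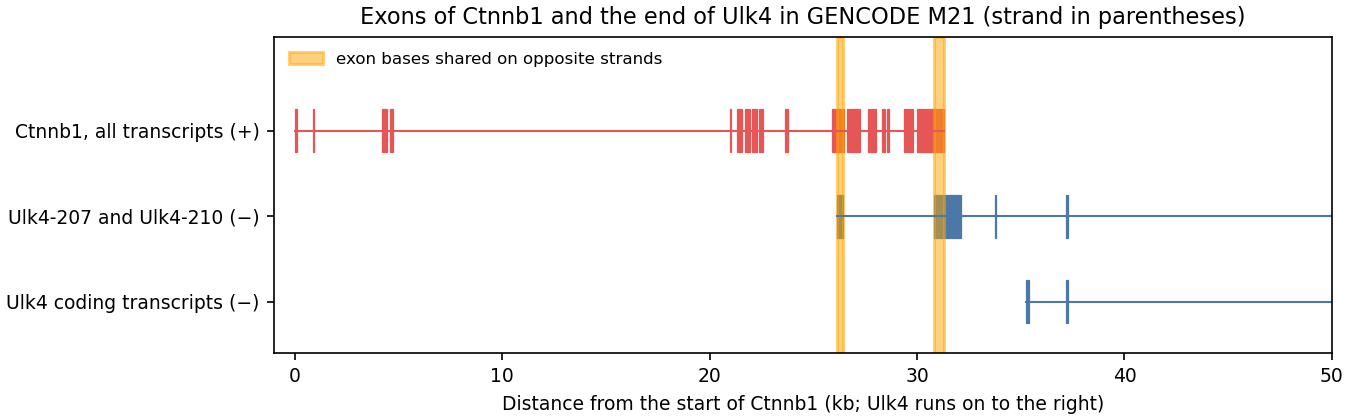
Exons of Ctnnb1 and of the near end of Ulk4 by distance from the start of Ctnnb1 in kb, with the strand in parentheses and orange bands for exon bases that both genes hold. The bands cover 284 and 475 bases and meet only the noncoding transcripts Ulk4-207 and Ulk4-210.

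The libraries were shallow. Totals were 91468 to 326686 counts, at least 221767 in each siRNA library and at most 122304 in each plasmid library. Rn45s, the ribosomal RNA precursor, took 1.61% to 5.49% of counts with siRNA and 10.03% to 15.4% with plasmid. The 9 members together held 966 of 2424120 counts. Of the fixed cholangiocyte markers, the keratins Krt8, Krt18 and Krt19 had 589, 1150 and 365 counts over the libraries and Spp1 had 609, whereas Epcam, Krt23, Onecut1 and Cftr were at 0 in every library. Ptprc of leukocytes, Pecam1 of endothelium, Col3a1 of mesenchyme and Alb of hepatocytes were at 0 in all 12 libraries. Other markers on the same lists were counted. Of the mesenchymal markers Vim had 384 counts and Acta2 180, and Cd74 of leukocytes had 36, Hnf4a of hepatocytes 35 and Egfl7 of endothelium 27. At 0 throughout were 4 of 13 cholangiocyte, 6 of 7 hepatocyte, 5 of 7 leukocyte, 3 of 6 endothelial and 3 of 8 mesenchymal markers.

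Silencing lowered Ctnnb1. Its counts were 13, 38 and 28 in si-CTL and 0, 11 and 3 in si-Ctnnb1, and the highest si-Ctnnb1 library was below the lowest si-CTL library. In CPM, the count relative to the library size after TMM scaling over the 12 libraries, the mean fell from 87.6 ± 27.97 to 14.8 ± 18.0 (SD, n = 3 each). Of the summed, depth-scaled counts, 16.5% remained (95% exact binomial interval 8.63% to 29.4%, counting error only). The log2 fold change was -2.54 (SE 0.55) with an adjusted p of 0.00491 in the quasi-likelihood test of edgeR, adjusted by Benjamini-Hochberg over 3484 genes. Leaving out si-CTL replicate 2 gave -2.31 (adjusted p = 0.101 in edgeR), and leaving out si-Ctnnb1 replicate 3 gave -2.30 (adjusted p = 0.0750 in edgeR). Leaving out si-Ctnnb1 replicate 2 gave -4.08. From bulk RNA, fewer cells that express a gene and less RNA per cell cannot be told apart.

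The order of Ctnnb1 levels over the groups was S45Y, si-CTL, eGFP and si-Ctnnb1. S45Y had 107 ± 58.5 CPM and eGFP 77.7 ± 23.0 CPM (SD, n = 3 each). Neighbours in this order overlapped, apart from eGFP and si-Ctnnb1, where the lowest eGFP library had 51.2 CPM and the highest si-Ctnnb1 library 34.8 CPM. Per kilobase of exon, Ctnnb1 was the highest of the 9 in si-CTL at 16.9 ± 5.39 CPM per kb, above Ctnnd1 at 9.42 ± 2.75. In si-Ctnnb1 it stood at position 6 with 2.85 ± 3.46 CPM per kb, and Ctnnd1 was then the highest at 10.3 ± 1.63.

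Ulk4 did not pass the test in silencing. Its counts were 20, 19 and 18 in si-CTL and 5, 21 and 11 in si-Ctnnb1. The groups overlapped, since si-Ctnnb1 replicate 2 lay within the si-CTL range in CPM and the other si-Ctnnb1 libraries lay below it. Mean levels were 68.2 ± 18.2 and 39.4 ± 25.1 CPM (SD, n = 3 each), with a log2 fold change of -0.76 (SE 0.45). In edgeR the unadjusted p was 0.0966 and the adjusted p 0.516. The change stayed negative with each library left out in turn, from -0.40 without si-Ctnnb1 replicate 1 to -1.35 without si-Ctnnb1 replicate 2. The ratio of summed counts was 0.605, and its counting interval of 0.389 to 0.931 was below 1, but that interval leaves out the spread between libraries, which the edgeR test includes.

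The share of Ctnnb1 in the counts of this pair was lower in each si-Ctnnb1 library than in any si-CTL library. Ctnnb1 made up 58.1% of the counts of the pair in si-CTL and 27.5% in si-Ctnnb1. By library the share was 39.4%, 66.7% and 60.9% in si-CTL against 0%, 34.4% and 21.4% in si-Ctnnb1. In eGFP and S45Y the pooled shares were 64.3% and 62.3%.

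Of the junction members, Ctnna1 and Ctnnd1 had enough counts for the test in silencing and did not pass, and the groups of all 4 overlapped. Ctnna1 encodes αE-catenin, which links β-catenin to actin. It had 7, 17 and 23 counts in si-CTL and 12, 19 and 13 in si-Ctnnb1, with a log2 fold change of -0.18 (SE 0.43, adjusted p = 0.919 in edgeR). Without si-CTL replicate 3 the log2 fold change was 0.16. Ctnna1 lies on chromosome 18 at 35118859 to 35254779 and holds Lrrtm2, a gene for a neuronal leucine-rich repeat protein, on the other strand, with 95 shared exon bases. Lrrtm2 had far more counts, 82, 133 and 102 in si-CTL and 97, 85 and 72 in si-Ctnnb1. In CPM its groups did not overlap, with a log2 fold change of -0.42 (SE 0.18, adjusted p = 0.302 in edgeR). Reads of Ctnna1 and Lrrtm2 in the 95 shared bases cannot be told apart without strand.

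Ctnnd1 encodes p120-catenin, which binds the membrane-near part of cadherins and keeps them at the surface. It was the member counted most, with 20, 23 and 15 counts in si-CTL and 20, 22 and 28 in si-Ctnnb1. The log2 fold change was 0.14 (SE 0.36, adjusted p = 0.924 in edgeR), or -0.05 without si-CTL replicate 3. Ctnnd1 is on the minus strand at chr2:84600071-84650765 and shares 4482 exon bases with Gm28635 on its own strand, a gene that the count table does not list.

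Jup encodes plakoglobin, the closest relative of β-catenin, which can take its place at adherens junctions and is also part of desmosomes. Its counts were 4, 6 and 8 in si-CTL and 2, 2 and 6 in si-Ctnnb1. The means were 20.6 ± 4.75 and 10.7 ± 7.23 CPM (SD, n = 3 each), and si-Ctnnb1 replicate 3 lay within the si-CTL range. Its difference in mean log2 CPM was -0.61 (two-sided exact permutation test, p = 0.3, where 0.1 is the smallest p that 3 libraries against 3 allow). Cdh1, the gene of E-cadherin, had 2, 11 and 12 counts in si-CTL and 3, 8 and 4 in si-Ctnnb1, a difference of -0.44 in mean log2 CPM (exact permutation p = 0.4). Jup is at chr11:100368958-100397763 on the minus strand and Cdh1 at chr8:106603351-106670246 on the plus strand, and neither overlaps an exon of another gene.

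Of the destruction complex members, Gsk3b had enough counts for the test and did not pass, and the groups of all 3 overlapped. Apc encodes the large scaffold that holds β-catenin in the complex and lies on chromosome 18 at 34220924 to 34322552. It had 7, 19 and 7 counts in si-CTL and 21, 5 and 6 in si-Ctnnb1, so si-Ctnnb1 replicate 1 was above every si-CTL library and the other si-Ctnnb1 libraries were below all of them in CPM. The difference in mean log2 CPM was -0.20 (exact permutation p = 0.7), and with 1 library left out it ran from -0.72 (si-Ctnnb1 replicate 1 omitted) to 0.11 (si-Ctnnb1 replicate 2 omitted). Gsk3b, the kinase gene at chr16:38089001-38246084, had 13, 12 and 7 counts in si-CTL and 3, 15 and 11 in si-Ctnnb1. Its log2 fold change was -0.29 (SE 0.56, adjusted p = 0.906 in edgeR). The sign turned when si-CTL replicate 1 (0.08) or si-Ctnnb1 replicate 1 (0.12) was left out. Axin1, the scaffold gene at chr17:26138688-26195811, had 0, 9 and 5 counts in si-CTL and 6, 1 and 0 in si-Ctnnb1 (exact permutation p = 0.8 on log2 CPM).

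**Figure D2:**
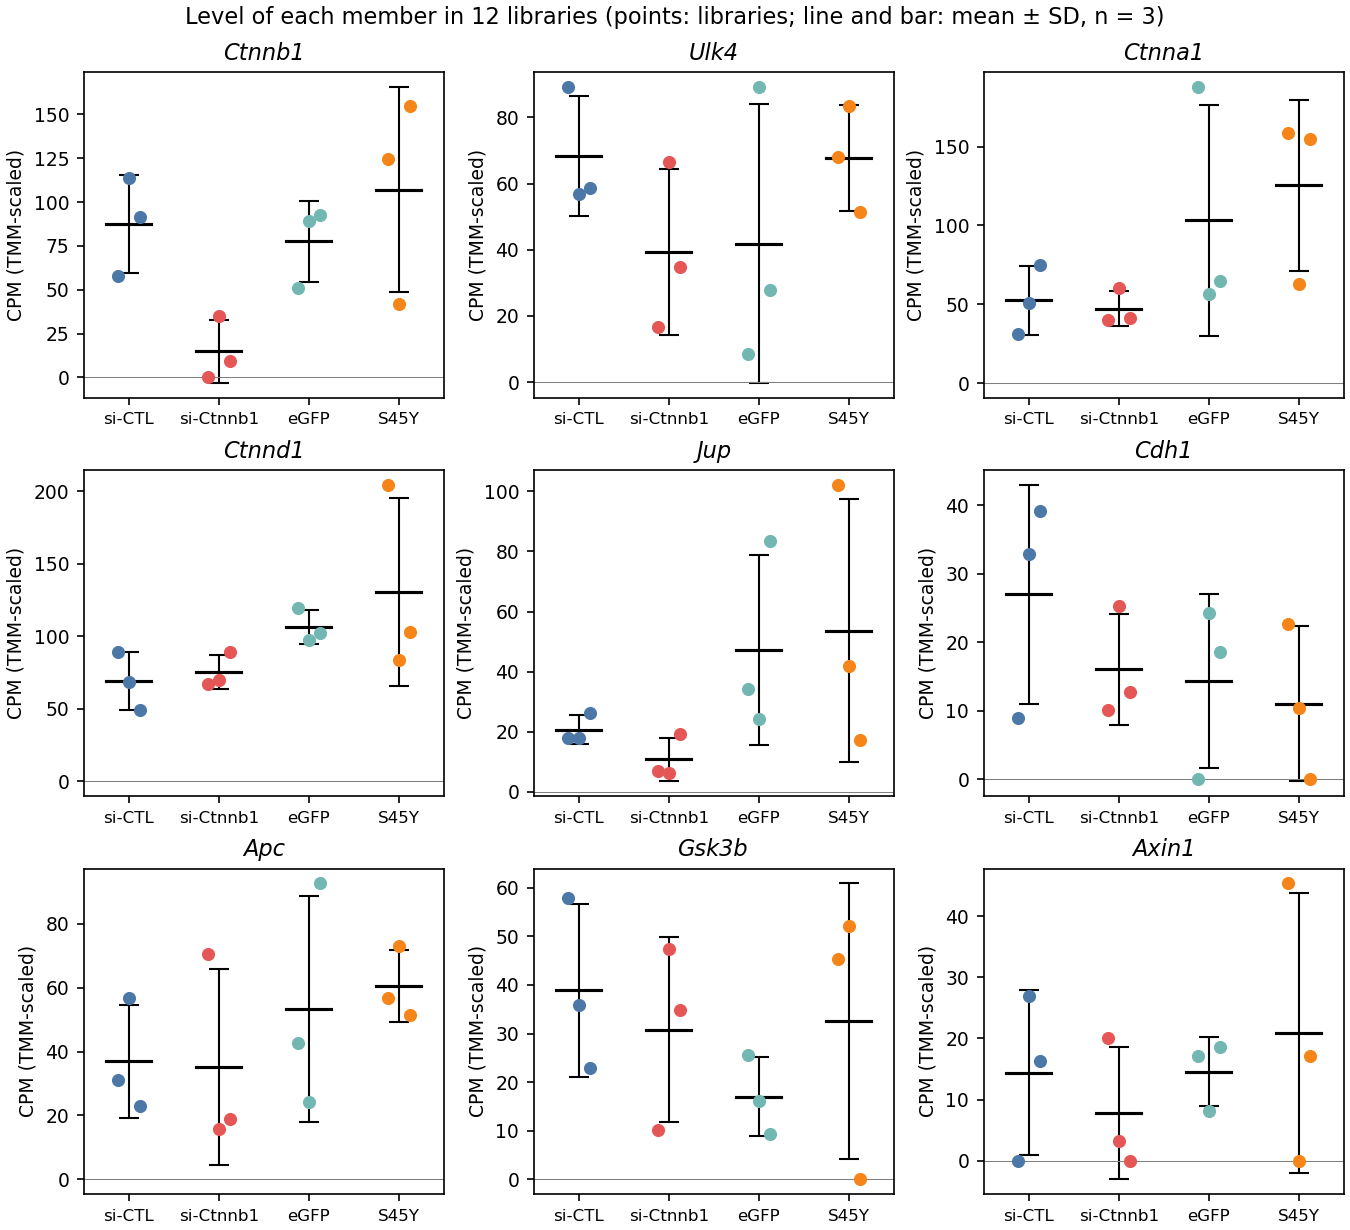
Level of each member in CPM (TMM-scaled over 12 libraries) by group, with points for libraries and a line and bar for mean ± SD (n = 3). For Ctnnb1 the si-Ctnnb1 libraries reach at most 34.8 CPM and lie below every library of the other groups, and for each other member the si-Ctnnb1 and si-CTL points overlap.

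Set beside the whole table, Ctnnb1 was the 1 member of 9 called lower in silencing, where 0.746% of the genes tested were called lower and 1.55% in either direction. It was also the only member whose silencing groups did not overlap, where 8.64% of the genes tested, and 5.15% of all genes with a count, were lower without overlap. The test covered Ctnnb1, Ulk4, Ctnna1, Ctnnd1 and Gsk3b, and the other 4 members had too few counts for it. In the same edgeR model without the filter on low counts, Jup had a log2 fold change of -0.90 (SE 0.82), Cdh1 -0.76 (SE 0.68), Apc -0.09 (SE 0.52) and Axin1 -0.94 (SE 0.96), none past an adjusted p of 0.05. In that model the median over the 9 members, the target Ctnnb1 included, was -0.73, the value of Ulk4, and over all 13362 genes -0.02. Gsk3b had -0.26, Ctnna1 -0.15 and Ctnnd1 0.17 there. Over the 5 members in the test with the filter the median was -0.29, next to -0.0033 over all genes tested. By mean log2 CPM, 8 of the 9 members, Ctnnb1 among them, were lower in si-Ctnnb1, against 50.9% of the genes with a count. Ctnnd1 was the member that was not. The number of lower members was 6 without si-Ctnnb1 replicate 1 and 7 or 8 with any other silencing library left out. The summed counts of the 7 junction and destruction complex genes were 227 in si-CTL and 207 in si-Ctnnb1, with summed levels of 259 ± 27.6 and 223 ± 6.22 CPM (SD, n = 3 each). The summed level of the 13 cholangiocyte markers was 1021 to 1294 CPM in si-CTL and 794 to 933 CPM in si-Ctnnb1, and its part in these differences was not tested.

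The ratio of summed counts gave the precision for each member. Ctnnb1 had 0.165 of its si-CTL level (0.0863 to 0.294), an interval that lay below those of the members other than Jup, Cdh1 and Axin1. For Ctnnd1 the interval was 0.782 to 1.62 and for Ctnna1 0.565 to 1.34. It was 0.538 to 1.52 for Apc and 0.493 to 1.44 for Gsk3b, so a change by the factor seen for Ctnnb1 lay outside the counting error of these 4. Jup at 0.518 (0.213 to 1.18), Cdh1 at 0.559 (0.274 to 1.10) and Axin1 at 0.466 (0.159 to 1.23) had wide intervals that reach from a large drop to no change. These are 95% exact binomial intervals for counting error only.

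**Figure D3:**
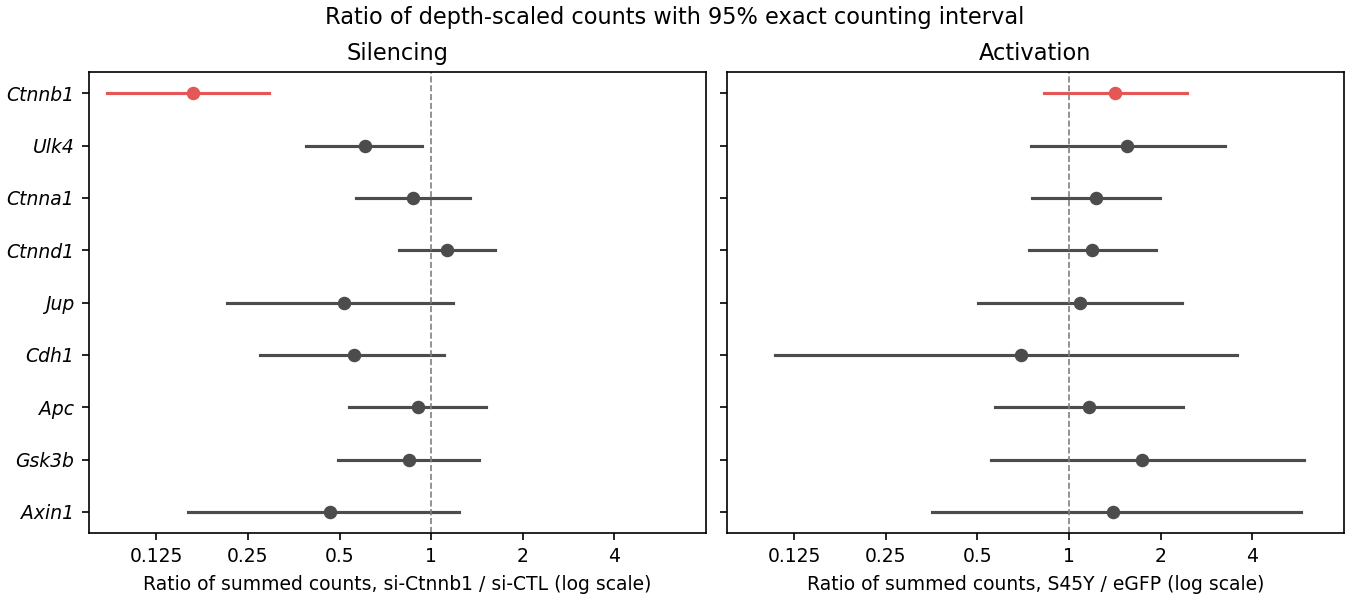
Ratio of depth-scaled summed counts, treated over control, on a log axis for silencing and activation, with bars for the 95% exact counting interval and a dashed line at 1. In silencing the bars of Ctnnb1 (0.165) and Ulk4 (0.605) end below 1, and in activation every bar includes 1.

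A comparison within each library, which needs no scaling, set Ctnnb1 against each other member. The log2 ratio of the counts, with 0.5 added to each, was lower in silencing against all 8 other members. The difference was between -2.30 against Jup and -3.45 against Ctnnd1. Without si-Ctnnb1 replicate 1, which had 0 counts of Ctnnb1, it was -0.18 against Axin1, -1.17 against Apc, -1.31 against Jup, -1.64 against Ulk4, -1.75 against Cdh1, -2.11 against Ctnna1, -2.26 against Gsk3b and -2.33 against Ctnnd1. Without si-Ctnnb1 replicate 2 it was -3.57 against Jup, -2.92 against Ulk4 and -4.52 against Ctnnd1. Against Ulk4 it was -0.60, 0.98 and 0.62 in si-CTL and -3.46, -0.90 and -1.72 in si-Ctnnb1, with no overlap. Against Ctnna1 it was 0.85, 1.14 and 0.28 in si-CTL and -4.64, -0.76 and -1.95 in si-Ctnnb1, again apart. The groups were also apart against Ctnnd1, Cdh1 and Gsk3b. For these 5 members the two-sided exact permutation p was 0.1, the smallest possible, among 8 comparisons that share the Ctnnb1 counts. Against Jup and Apc the groups overlapped (exact permutation p = 0.3), as they did against Axin1 (exact permutation p = 0.6). On summed counts the ratio of ratios had a counting interval below 1 for 7 of the 8, at 0.275 for Ulk4 (95% exact interval 0.125 to 0.578) and an interval that included 1 for Axin1. The Ctnnb1 groups did not overlap in CPM, so its ratio to a gene at a steady level can be apart as well. The share of all genes apart in this way was not taken, so these counts of members are no result about the members.

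**Figure D4:**
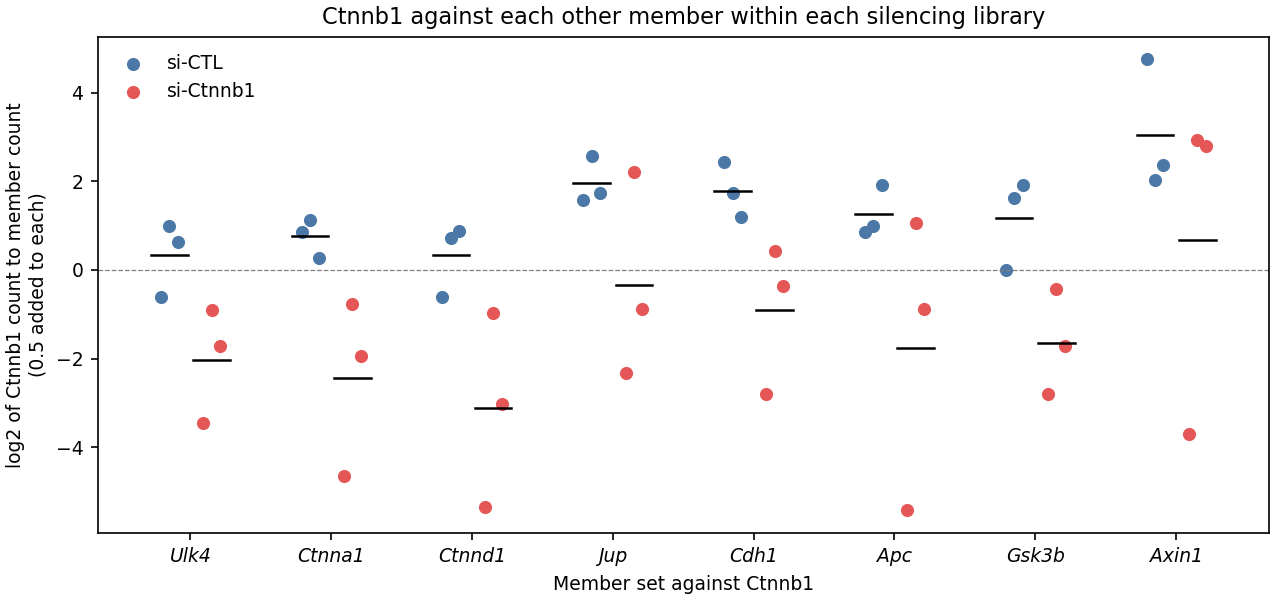
Log2 ratio of the Ctnnb1 count to the count of each other member within each silencing library, 0.5 added to both, with black lines for group means. The si-Ctnnb1 points lie below all si-CTL points for Ulk4, Ctnna1, Ctnnd1, Cdh1 and Gsk3b and overlap them for Jup, Apc and Axin1.

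Activation called none of the members. In edgeR, 0 of 1819 genes tested passed an adjusted p of 0.05 and 107 (5.88%) had an unadjusted p under 0.05, and DESeq2's Wald test also gave 0 genes. With eGFP the counts of Ctnnb1 were 6, 11 and 10, against 11, 4 and 18 with S45Y, where S45Y replicate 2 was the lowest of the 6 libraries in CPM and the other S45Y libraries were the highest. Its log2 fold change was 0.51 (SE 0.55, adjusted p = 0.989 in edgeR). Leaving out S45Y replicate 3 gave 0.087, and leaving out S45Y replicate 2 gave 0.88. The difference in mean log2 CPM, 0.29, was -0.03 without S45Y replicate 3. Ctnna1 and Ctnnd1, the other members with enough counts, had log2 fold changes of 0.31 (SE 0.50) and 0.30 (SE 0.48). With 1 library left out, Ctnna1 ranged from 0.0076 without eGFP replicate 2 to 1.05 without eGFP replicate 1, and Ctnnd1 was at -0.17 without S45Y replicate 1.

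Counts of Ulk4 were 1, 11 and 3 with eGFP and 6, 8 and 6 with S45Y. The eGFP libraries held both its highest and its lowest CPM, and the ratio of summed counts was 1.55 (0.753 to 3.25). Gsk3b had 3, 2 and 1 counts against 4, 5 and 0, and Cdh1 had 0, 3 and 2 against 2, 1 and 0. Axin1 had 2, 1 and 2 counts against 4, 0 and 2, Jup 4, 3 and 9 against 9, 4 and 2, and Apc 5, 3 and 10 against 5, 7 and 6. The groups overlapped for all 9 members, where 3.19% of genes with a count were lower and 3.5% higher in S45Y without overlap. By mean log2 CPM, 8 of 9 members were higher in S45Y, against 48.7% of the genes with a count, and Cdh1 was the member that was not. Leaving out 1 library moved this count from 4 without S45Y replicate 1 to 9 without eGFP replicate 3. It was 7 with a prior count of 0.5.

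The difference between the 2 treatments was tested itself, in 1 edgeR fit of the 12 libraries over 2996 genes. For Ctnnb1 the silencing effect minus the activation effect was -2.98 on the log2 scale (SE 0.79, unadjusted p = 0.000298, adjusted p = 0.0513), just outside the threshold, where 0.534% of genes passed. It passed with other scalings, at an adjusted p of 0.0467 with library totals. It did not pass without a filter on low counts (0.0620), with a minimum count of 5 (0.0518) or with the replicate number as a block (0.0601). With 1 library left out it passed in 2 of 12 edgeR fits, without S45Y replicate 2 (adjusted p = 0.0106) and without si-Ctnnb1 replicate 2 (adjusted p = 0.00365), and the adjusted p of the other 10 was 0.0572 to 0.175. For Ulk4 the same difference was -1.37 (SE 0.84, adjusted p = 0.623 in edgeR), from -0.92 without eGFP replicate 1 to -2.61 without eGFP replicate 2. Ctnna1, Ctnnd1 and Apc had -0.44 (SE 0.68), -0.10 (SE 0.59) and -0.28 (SE 0.92). Ctnna1 ranged from -0.10 without si-CTL replicate 3 to -1.22 without eGFP replicate 1. The sign for Ctnnd1 turned to 0.34 without S45Y replicate 1 and to 0.09 without si-CTL replicate 1, and that for Apc to 0.06 without eGFP replicate 2.

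The controls gave the members' background between the experiments. eGFP and si-CTL differed in reagent, hours and depth, which cannot be told apart, and 16.9% of 2459 genes tested were called between them. None of the 4 members tested was. Ctnnb1 had a log2 fold change of -0.15 (SE 0.45), eGFP relative to si-CTL, which became 0.03 without eGFP replicate 1 and 0.05 without si-CTL replicate 2. Ulk4 had -0.61 (SE 0.57), which was -0.16 without eGFP replicate 1 and -1.88 without eGFP replicate 2. Ctnna1 had 0.99 (SE 0.49, adjusted p = 0.167 in edgeR), which was 0.19 without eGFP replicate 1. Ctnnd1 had 0.68 (SE 0.44, adjusted p = 0.314 in edgeR), and its groups did not overlap, as for 13.7% of genes in the higher direction. Ctnna1 and Ctnnd1 had means of 103 ± 73.4 and 106 ± 11.7 CPM in eGFP against 52.4 ± 22.0 and 68.9 ± 20.1 CPM in si-CTL (SD, n = 3 each).

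The wider pathway was read from 4 lists of genes. Of 31 adherens junction and desmosome genes in the table, 12 could be tested in silencing and 0 passed, with a median log2 fold change of -0.19 next to -0.0033 over all genes tested. Those with the smallest unadjusted p were Dsg2, a desmosomal cadherin (-0.98, SE 0.47, adjusted p = 0.379), and Arvcf, a relative of p120-catenin (-0.51, SE 0.26, adjusted p = 0.415), in edgeR, followed by Ajuba, a LIM protein of junctions (-0.84, SE 0.52), and Actn1, an α-actinin (-0.76, SE 0.64). Dsg2 was the 1 gene of the 12 with an unadjusted p under 0.05 in edgeR, as were 12.5% of all genes tested. Of 26 destruction complex genes, 12 could be tested and 0 passed, with a median of 0.16 that was -0.10 without the filter on low counts. Ppp2ca, a catalytic subunit of the phosphatase PP2A, had 0.51 (SE 0.37), and Ppp2r5d, a regulatory subunit of it, had 0.15 (SE 0.12). Tnks2, a tankyrase that marks Axin for turnover, had 0.62 (SE 0.47), and Rnf146, the ubiquitin ligase that reads this mark, had 0.12 (SE 0.09).

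Among 27 genes of nuclear β-catenin partners, 8 could be tested in silencing and 1 passed, lower, as did 0.746% of all genes tested. The list was written with earlier results of these data known, so it is not independent evidence. Ep300, the acetyltransferase p300 that acts as a co-activator, fell from 89.2 ± 19.3 to 27.4 ± 23.3 CPM (SD, n = 3 each), a log2 fold change of -1.70 (SE 0.46, adjusted p = 0.0483 in edgeR). With 1 library left out, the adjusted p was above 0.05 in 5 of 6 edgeR fits, from 0.0526 to 0.280, and it was 0.00437 without si-Ctnnb1 replicate 1, where the log2 fold change was -2.59. With all libraries it was also above 0.05 with DESeq2 size factors (0.0514) and with a minimum count of 5 (0.0592) in edgeR. Crebbp, the related acetyltransferase CBP, had -1.13 (SE 0.43, adjusted p = 0.204 in edgeR), with 70.9 ± 10.9 and 32.3 ± 6.48 CPM. Smarca4, the BRG1 ATPase of chromatin remodelling, had -0.89 (SE 0.27, adjusted p = 0.0762 in edgeR). Ruvbl2, an ATPase of chromatin complexes, had 0.55 (SE 0.45, adjusted p = 0.701 in edgeR), with 37.3 ± 13.3 and 55.9 ± 16.1 CPM. The median of the 8 was -0.03, and -0.31 without the filter on low counts. In activation Ep300 had 0.69 (SE 0.49, adjusted p = 0.961 in edgeR).

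Of 30 Wnt ligand and receptor genes, 11 had no count in any library and 1 could be tested in silencing. This was Wnt7b, with 37.3 ± 2.46 CPM in si-CTL and 16.3 ± 6.25 CPM in si-Ctnnb1 (SD, n = 3 each) and a log2 fold change of -1.18 (SE 0.61, adjusted p = 0.420 in edgeR). In activation, 8 junction genes, 4 destruction complex genes and 4 nuclear partners could be tested, and 0 passed the adjusted p in edgeR. The smallest unadjusted p among them, read after the values were seen, was that of Vcl, the actin linker vinculin, at 188 ± 46.1 CPM in eGFP and 76.6 ± 24.8 CPM in S45Y (log2 fold change -1.26, SE 0.46, unadjusted p = 0.00778, adjusted p = 0.604 in edgeR).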

How the data were processed

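RNA was measured in 12 SMCC libraries, 3 for each transfection, grouped by their labels. The authors checked reads with FastQC, trimmed them with Trimmomatic 0.38, aligned them to mm10 with HISAT2 2.1.0 and counted them per gene with HTSeq 0.11.2, per the labels and the methods of the study. The deposited values are whole-number counts for 24421 gene symbols, not normalized, with libraries kept apart. The annotation, the overlap mode and strand setting of HTSeq and the read type were not given in the sources used here. HTSeq's default mode drops reads on exons of several genes.

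The counts were tested in R 4.3.3 with edgeR 4.0.16, each comparison on its own libraries without covariates (filterByExpr with minimum count 10 and minimum total 15, TMM, quasi-likelihood test, Benjamini-Hochberg over all genes tested). DESeq2 (version 1.42.0 here) was an alternative, with other scalings, filters, prior counts, a replicate block and each library left out. The SE of a log2 fold change was derived from the edgeR test, as its absolute value divided by the square root of the F statistic. CPM values were scaled over 12 libraries, and log2 CPM had a prior count of 2. Intervals of ratios of summed counts are exact (Clopper-Pearson, 95%). Those of ratios of ratios are 95% intervals of a conditional odds ratio. Both cover counting error only. Where a library has 0 counts of a gene, up to 3 remain possible. Positions and overlaps came from GENCODE M21 on mm10, in which 23376 of 24421 symbols (95.7%) matched. The members and lists were chosen with earlier results of these data known. Named genes were the members, genes with exons opposite theirs, and in each list those past the adjusted p and up to 4 with the smallest p in silencing. Also named were Gm28635 on the strand of Ctnnd1, Rn45s, cell type markers, and the genes most like Ctnnb1 and Ulk4 over the libraries. Vcl was chosen after its values were seen. The 12 pairs of libraries within groups all differed by more than sampling noise (chi-square over degrees of freedom 2.06 to 2.61). The code was tested on simulated data.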

Additional observations from a re-analysis of the deposited data

How the results depend on the processing

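Ctnnb1 kept its direction in silencing in every alternative, between -2.69 and -2.51 on the log2 scale with other scalings, filters and designs in edgeR, and between -4.08 and -1.98 with 1 library left out, where the adjusted p rose above 0.05 when si-CTL replicate 2 was left out and when si-Ctnnb1 replicate 3 was. In those 2 fits 0 members passed, so the count of members past the adjusted p was 0 to 1 with a library left out. DESeq2 gave Ctnnb1 an unadjusted p of 0.000427 and no adjusted p. The number of genes past the adjusted p in silencing was 54, 31 to 49 with a library left out, and 38 to 64 otherwise. In activation it was 0 under all 14 alternatives. The silencing effect on Ctnnb1 minus the activation effect passed the adjusted p with DESeq2 size factors (-2.99), library totals (-3.02), without Rn45s (-2.95) and in DESeq2's Wald test (-3.02), and did not pass without a filter, with a minimum count of 5 or with a replicate block. It ranged from -4.49 to -2.47 with a library left out and passed in 2 of those 12 fits. With 1 library left out, the log2 fold change turned sign in silencing for 4 members, ranging from -0.40 to 0.16 for Ctnna1, from -0.052 to 0.35 for Ctnnd1 from -0.73 to 0.12 for Gsk3b, and for Apc from -0.38 to 0.24 over the 4 such fits in which it had enough counts. It also did for Ctnnd1 in activation (-0.17 to 0.53), for Ctnnb1 between the controls (-0.39 to 0.053), and in the difference of treatments for Ctnnd1 (-0.33 to 0.34) and Apc (-0.94 to 0.064). Ulk4 was negative in silencing under all 13 alternatives and never passed. The ratio of Ctnnb1 to another member was lower in silencing under all 64 alternatives. The replicate numbers gave no steady pairing of the libraries. The pairing measure, a correlation near 0 throughout, was between -0.0496 and 0.0316 for same-numbered libraries. It was above the best other number for activation replicates 2 (0.0285 against 0.0047) and 3 (0.0316 against 0.0003), and below it for activation replicate 1 and in silencing. A fit with the replicate number as a block gave 64 genes in silencing and Ctnnb1 at -2.69 (edgeR, adjusted p = 0.000162). Depth kept 4 members out of the silencing test and 6 out of the activation test, by the filter on low counts.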

Other observations

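The genes whose log2 CPM was most like that of Ctnnb1 over the 12 libraries, among 2995 genes with enough counts, were Phf14 (Pearson r 0.848), Recql5 (0.841), Kcnip4 (0.838), Srp72 (0.815) and Ifi35 (0.805). Srp72 encodes a subunit of the signal recognition particle and Recql5 a DNA helicase. For Ulk4 they were Sltm (0.875), Ap1ar (0.849), Sart1 (0.818), Pawr (0.793) and Cd27 (0.791). Between Ctnnb1 and Ulk4 themselves r was 0.431, at position 386 among the genes set against Ctnnb1. Ctnna1 had r of 0.503 with Ctnnb1 and -0.27 with Ulk4. The points share library, depth and low counts, so these values are descriptions of the 12 libraries.

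Jup and Cdh1 stood in different orders over the groups. Jup had 53.7 ± 43.7 CPM in S45Y, 47.3 ± 31.6 in eGFP, and with siRNA 20.6 ± 4.75 in si-CTL and 10.7 ± 7.23 for si-Ctnnb1 (SD, n = 3 each). Cdh1 had 11.0 ± 11.4 in S45Y, 14.3 ± 12.7 in eGFP, 16.0 ± 8.14 in si-Ctnnb1 and 27.0 ± 16.0 in si-CTL. Neighbouring groups overlapped in both orders. Apc, with 16116 exon bases, had the lowest level per kilobase of the 9 members in si-CTL at 2.29 ± 1.10 CPM per kb, and Axin1 and Cdh1 were at 0 in 3 and 2 of the 12 libraries.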
